A study of Anthoceros agrestis with 2 samples.

Results

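Short CG-only blocks are stretches of the Anthoceros agrestis genome, 1 or 2 kb long as counted in 1 kb bins, in which cytosines followed by G (the CG context) were methylated whereas cytosines in the CHG context (H is A, C or T) were nearly unmethylated. There were 2930 such blocks, 1950 of 1 bin and 980 of 2 bins, and together they held 3910 bins, or 3.49% of the 111934 scored bins on the 6 chromosomes. The genomic DNA came from 2 biological replicates of 4-wk-old gametophyte thalli of the hornwort A. agrestis, wild type, Oxford strain, grown on solid medium in continuous light, with no second genotype or condition. The assay was Enzymatic Methyl-seq (EM-seq), in which unmethylated cytosines are deaminated by enzymes and read as T, whereas methylated cytosines are still read as C. Methylated and unmethylated reads per cytosine were deposited for each replicate (323429467 and 325691541 calls, a median depth of 4 reads) and for the merged reads (648374160 calls, a median depth of 9).

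The level of a cytosine was the percentage of its reads that were methylated, and the level of a bin was the mean over its cytosines. A CG-only bin reached 50% in CG and stayed below 10% in CHG in the merged report, over at least 5 CG and 5 CHG cytosines with 10 reads or more. Of all scored bins, 6.48% were CG-only in the merged report, 6.61% in replicate 1 and 6.36% in replicate 2. A member was a run of exactly 1 or 2 such bins whose neighbouring bins were scored and not CG-only, and 87 further runs were left out because a neighbouring bin could not be scored. The blocks were therefore chosen by their merged CG and CHG levels, which are given below as a description. Runs of 1 bin made up 52.7% of all 3809 CG-only runs, and 792 runs were 3 to 15 bins long. With a CG limit of 70% in place of 50%, the number of short blocks was 1907.

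In land plants, CG methylation is copied onto the new strand after replication by DNA methyltransferases of the MET1 family, because a CG reads the same on both strands. In flowering plants, CHG methylation is typically maintained by chromomethylases that bind methylated histone H3, and CHH methylation by chromomethylases or by small RNA-directed methyltransferases. In the moss Physcomitrium patens, the paper reports, CHH methylation comes mainly from another enzyme, DNMT3. For A. agrestis it proposes that the ortholog of the small RNA-directed enzymes is inactive in vegetative haploid tissue. Transposons of flowering plants usually carry methylation in all contexts, whereas CG methylation alone is known from the bodies of many of their genes. No histone or RNA data were used here, and a CG-only block is not by itself a gene body.

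Stretches of 5 blocks are printed here because they show single CG pairs of both kinds, methylated and unmethylated, side by side or in separate stretches. They were rebuilt from the trinucleotide contexts of the cytosine reports, in the coordinates of the Oxford assembly and on the plus strand. Capitals mark CG pairs methylated at 50% or more over both strands of the merged report, and a CG in lower case is below that. The first and second stretches lie in blocks named for their many covered CG sites, and the others, chosen after their values were seen, are the longest stretches with a pair in the form ACGT and at least 3 other pairs in blocks of each main kind of surroundings.
AnagrOXF.S1:19826605-19826683: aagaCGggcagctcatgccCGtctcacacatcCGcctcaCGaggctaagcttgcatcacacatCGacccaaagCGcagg
AnagrOXF.S4:17327707-17327750: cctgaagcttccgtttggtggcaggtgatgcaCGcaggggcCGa
AnagrOXF.S5:4439620-4439738: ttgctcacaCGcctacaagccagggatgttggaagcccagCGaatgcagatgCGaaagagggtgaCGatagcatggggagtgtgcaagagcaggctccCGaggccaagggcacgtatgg
AnagrOXF.S2:20462076-20462167: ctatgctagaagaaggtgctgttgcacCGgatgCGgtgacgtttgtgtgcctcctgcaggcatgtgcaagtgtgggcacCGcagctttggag
AnagrOXF.S2:12362901-12362971: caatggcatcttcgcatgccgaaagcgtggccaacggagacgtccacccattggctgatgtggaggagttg

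In the stretch of AnagrOXF.S1, all 6 CG pairs were methylated, from 75% to 100% in the merged report, and the pair at position 40 of the stretch had 27 methylated of 36 reads. The 7 covered CHG cytosines between them had a level of 4.73%. The 28 covered CHH cytosines had 3.55%, against 0.130% in all short blocks, and the block touched a methylated bin. In the stretch of AnagrOXF.S4, 1 of 33 reads was methylated at the first pair (position 12), against 21 of 31 at position 33 and 27 of 30 at position 42. In the stretch of AnagrOXF.S5, 5 of 6 pairs were methylated, and the exception, the pair at position 113 in the form ACGT, had 7 methylated of 20 reads (3 of 11 in replicate 1 and 4 of 9 in replicate 2). The stretch of AnagrOXF.S2 from 20462076 had 3 of 4 pairs methylated, and again the pair in the form ACGT, at position 40, was the exception with 6 of 15 reads. In that from 12362901, none of the 5 pairs had a methylated read in 19 to 21 reads each, although its 2 kb block passed the limits. High and unmethylated pairs thus occurred within the same block, and in all 5 stretches both replicates placed the pairs on the same side of 50%, except at position 40 from 20462076 (1 of 6 and 5 of 9 reads).

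The bins in short blocks had a merged CG level of 67.0%, and the replicates gave 66.3% ± 1.20 (SD, n = 2). Single blocks ranged from 50.01% to 97.6% with a median of 65.9%, and 277 of them reached 80%. The CHG level was 0.513% (0.572% ± 0.0172 in the replicates), far below the limit of the rule in most blocks, since 2632 of the 2930 blocks (89.8%) were below 1%. By comparison, bins methylated in both contexts (CG at least 50%, CHG at least 30%) had 94.1% CG and 63.4% CHG methylation, and unmethylated bins (both below 5%) had 0.438% and 0.176%. CG-only runs of 3 or more bins had a CG level of 72.3%, and the short blocks were 5.76 ± 0.451 points lower in the replicates. Blocks of 2 bins were at 68.4% CG and 0.223% CHG, and blocks of 1 bin at 65.5% CG and 0.805% CHG.

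The CHH level, which the rule did not use, was near that of unmethylated bins and far below that of methylated bins. The merged value was 0.130% (replicates 0.129% ± 0.0167, SD, n = 2), against 0.0999% in unmethylated bins (0.102% ± 0.00712) and 2.02% in methylated bins (2.01% ± 0.0407). The difference from unmethylated bins was 0.0278 ± 0.00961 points over all short blocks and 0.0541 ± 0.00789 points in blocks of 1 bin. In blocks of 2 bins it was 0.00155 ± 0.0113 points, with opposite signs in the replicates, which is smaller than their spread. The CHH level was higher in the blocks with more CHG methylation. It was 0.0910% ± 0.0144 (SD, n = 2) in the 2632 blocks with a CHG level below 1%, against 0.597% ± 0.0927 in the 158 blocks at 1 to 5% and 0.512% ± 0.0414 in the 140 blocks at 5% or more. With a CHG limit of 1% for all CG-only bins, the CHH level of short blocks fell to 0.0798%, so it depended on the few blocks with CHG methylation. The unmethylated bins kept their CHG limit of 5%, so this value cannot be set against theirs under a like limit. Whether the small difference changes direction without those blocks was not tested. The 3 blocks with the highest CHH level, of 4.85%, 2.73% and 2.36% in the merged report, had CHG levels of 9.87%, 8.95% and 2.66%. Their CHH levels were 5.87%, 2.71% and 3.98% in replicate 1 and 2.83%, 3.74% and 0.345% in replicate 2, so that the third was high in replicate 1 only, and the first had a CHG level of 14.3% in replicate 2, above the limit of the rule.

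The remaining CHG methylation of the blocks did not have the sequence preference of methylated DNA. The levels by sequence are means over all covered sites of a group. The CHG level of short blocks, 0.513%, is a mean over bins and cannot be set against them. In methylated bins, CAG (75.5%) and CTG (71.4%) were far above CCG (28.9%). In short blocks, CCG was the highest, at 0.505% (0.511% ± 0.00271 in the replicates), against 0.329% at CAG (0.362% ± 0.00135) and 0.322% at CTG (0.349% ± 0.00717). CCG was thus the lowest of the 3 in methylated bins and the highest in short blocks, and its differences from CAG and CTG were larger than the spread of the replicates. CG-only runs of 3 or more bins had the same order, with 0.283% at CCG, 0.208% at CAG and 0.192% at CTG, so it was not particular to short blocks. In both of these groups the rule had limited the CHG level. In unmethylated bins CCG was at 0.101%, below CAG (0.174%) and CTG (0.172%). Whether the state of the inner CG of a CCG had a part in this level was not tested.

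The intermediate CG level of short blocks came mostly from a mixture of methylated and unmethylated cytosines, and less from cytosines at intermediate levels. Of the 117569 covered CG cytosines, 59.8% had a level of 80% or more, 19.2% had no methylated read and 16.9% lay from 20% to below 80%. In methylated bins, 95.4% of CG cytosines were at 80% or more and 0.982% had no methylated read. CG-only runs of 3 or more bins were again between these, with 65.5% and 13.9%. Of the covered CHG cytosines in short blocks, 97.1% had no methylated read, against 98.3% in unmethylated bins.

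**Figure D1:**
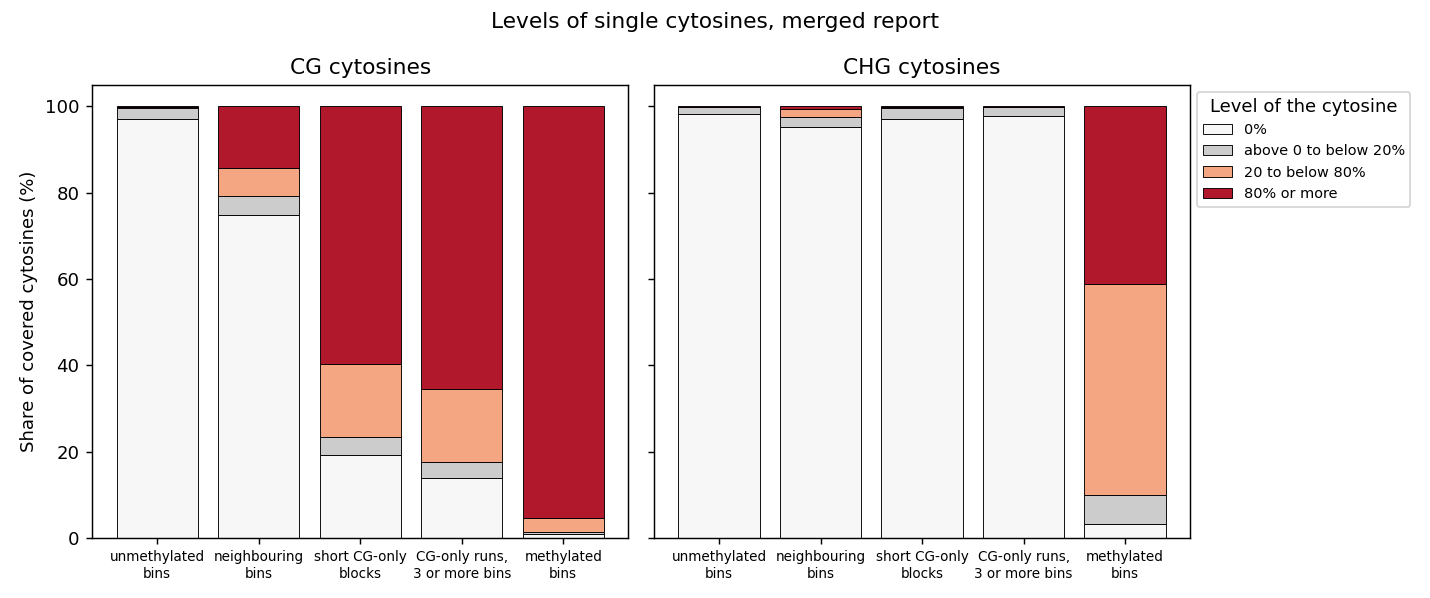
Share of covered cytosines (%) by their methylation level in the merged report, for CG (left) and CHG (right) cytosines, in 5 groups of 1 kb bins. In short CG-only blocks 59.8% of CG cytosines were at 80% or more and 19.2% at 0, whereas 97.1% of CHG cytosines were at 0.

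Both strands of a CG pair carried the same state. Over 34860 pairs with 10 reads on each strand, r between the levels of the strands was 0.961, over pairs that share their libraries and are not independent. Of the 26116 pairs with at least 1 strand at 50% or more, 7 were methylated on 1 strand only, that is 80% or more on that strand and below 20% on the other. Single pairs were also alike in the replicates, with r = 0.879 over 39408 pairs covered by at least 10 reads in each. The mixture of high and low pairs in a block was therefore mostly the same in both replicates.

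Neighbouring CG pairs within a block were often in different states. Of neighbouring covered pairs 2 to 10 bp apart, 91.8% were both at 50% or more or both below (90.9% ± 0.721 in the replicates, SD, n = 2). The share was 75.6% at 11 to 25 bp (74.2% ± 0.927), 61.8% at 26 to 50 bp (60.9% ± 0.249) and 58.2% at 51 to 100 bp (57.7% ± 0.272). In methylated bins it was 99.6% at 2 to 10 bp and still 97.3% at 51 to 100 bp, and in CG-only runs of 3 or more bins it was 91.1% and 63.6%. Agreement between neighbours in short blocks thus fell up to 51 to 100 bp, by far more than the replicates differed. It was 59.8% over 100 bp and up to 200 bp, and 53.1% beyond that up to 500 bp, over 529 neighbours. Such agreement also depends on how many pairs are methylated. In short blocks, both neighbours were methylated in 82.1% of cases at 2 to 10 bp and 42.8% at 51 to 100 bp. In methylated bins these shares were 98.0% and 95.8%. How much of the fall, or of the contrast with methylated bins, came from this was not tested.

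The level of a CG pair in short blocks varied with the bases beside it, which is a sequence feature the rule did not use. Pairs in the form ACGT, in which CG is followed by T on both strands, had a level of 45.7% (45.7% ± 1.75 in the replicates, SD, n = 2). Pairs followed by T on 1 strand had 59.4% (59.4% ± 1.35) and those on neither strand 73.8% (73.8% ± 1.05). Over the 10 possible sets of flanking bases the level rose from ACGT to GCGC, which was at 79.3% (79.4% ± 1.05). TCGA was at 76.1% (76.0% ± 1.21), so that A and T beside the CG did not by themselves go with a low level. The difference between pairs followed by T on neither and on both strands was 28.1 ± 0.698 points in the replicates. It was also found within blocks. In the 2652 blocks with pairs of both kinds, the mean difference was 28.2 points merged and 28.2 ± 0.962 in the replicates, and it was positive in 2122 of them. In methylated bins the levels were 91.0%, 93.6% and 94.7%, and in CG-only runs of 3 or more bins 48.2%, 66.4% and 79.3%.

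**Figure D2:**
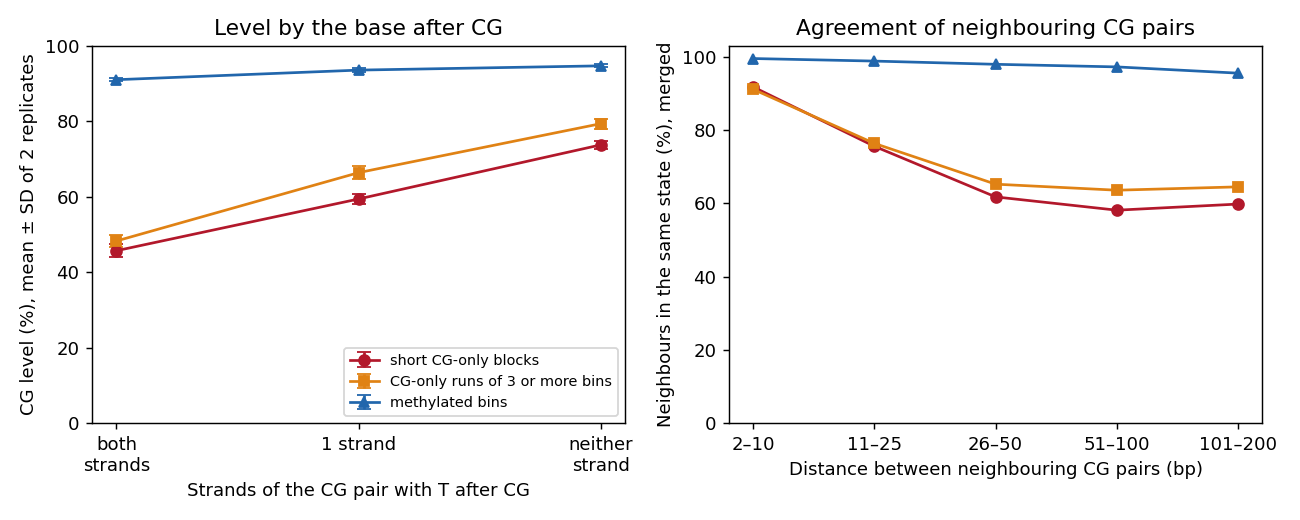
Left, CG level (%, mean and SD of 2 replicates) of CG pairs followed by T on both strands, on 1 strand or on neither, in short CG-only blocks, longer CG-only runs and methylated bins. Right, share (%) of neighbouring covered CG pairs in the same state (both at 50% or more, or both below) by their distance in the merged report; in short blocks the level rises from 45.7% to 73.8% and agreement falls from 91.8% to 58.2% at 51 to 100 bp and is 59.8% beyond that up to 200 bp.

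Short blocks contained few CG sites. They had 49.4 CG cytosines per kb, counted on both strands, against 86.8 in unmethylated bins, 72.0 in methylated bins and 64.4 in the bins beside the blocks. The value of CG-only runs of 3 or more bins was near theirs, at 48.2. Bins of short blocks had a median of 48 CG cytosines, with 36 at the 10th and 64 at the 90th percentile, and unmethylated bins had 54 to 130 between these percentiles, so the groups overlap. The ratio of CG sites to the number expected from the base composition was 0.446 in short blocks, 0.638 in unmethylated and 0.626 in methylated bins. Their G and C content of 47.9% was near that of methylated bins (47.5%), and this ratio takes the base composition into account. Of their cytosines, 37.0% were followed by A, against 30.4% in unmethylated and 30.7% in methylated bins. Among the blocks themselves, the CG level hardly varied with CG content (r = 0.0471, Spearman's rho = 0.0730, over 2930 blocks that share their libraries). The mean depth of short blocks was 10.4 reads and 58.0% of their cytosines had 10 reads, against 10.6 reads and 59.2% in unmethylated bins and 9.52 reads and 47.6% in methylated bins.

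**Figure D3:**
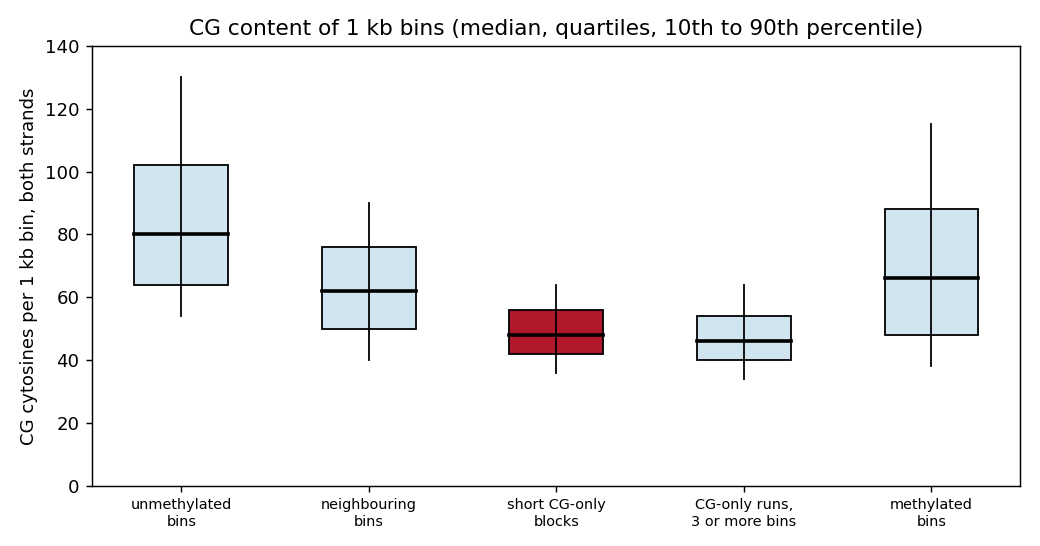
CG cytosines per 1 kb bin, counted on both strands, in 5 groups of bins. Thick lines are medians, boxes quartiles and thin lines the 10th to 90th percentiles; the median is 48 in short CG-only blocks and 80 in unmethylated bins.

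The longest unbroken methylated stretch of a block was mostly shorter than the block. It was measured as the longest run of covered CG pairs at 50% or more that touched the block, with no gap over 500 bp. The run ended at the first covered pair below 50%, so it does not give the full extent of methylation in the block. Its median length in the merged report was 326 bp with 9 pairs (replicates 313 bp ± 5.30, SD, n = 2). It was 285 bp in blocks of 1 bin, 408 bp in blocks of 2 bins and 651 bp in CG-only runs of 3 or more bins. The stretch lay wholly inside the block in 2100 blocks (71.7%) and ran past an edge in 830. In 121 of the 1950 blocks of 1 bin (6.21%), it was 1000 bp or longer. The longest stretch, of 16784 bp, ran far past its block.

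Around the blocks, CG methylation formed a peak in a valley of low methylation. In the 100 bp steps beside the centre of 1-bin blocks the CG level was 71.1% and 69.9%. It fell to 7.70% at 1450 bp on either side and rose to 26.6% and 30.9% at 4950 bp. CHG methylation had no peak at the centre, where it was 0.413% and 0.408%, and rose only farther out, to 11.4% and 12.7% at 4950 bp. Blocks of 2 bins had a CG level of 73.5% and 74.4% beside the centre, with minima of 6.24% at 1950 bp to the left and 6.50% at the same distance to the right. The CG content had the opposite shape, from 49.0 CG cytosines per kb at the centre of 1-bin blocks to 82.2 at 1850 bp to the left. The CG peak without a CHG peak, and the lower CG level just beside it, follow from how the blocks were chosen and are no finding.

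**Figure D4:**
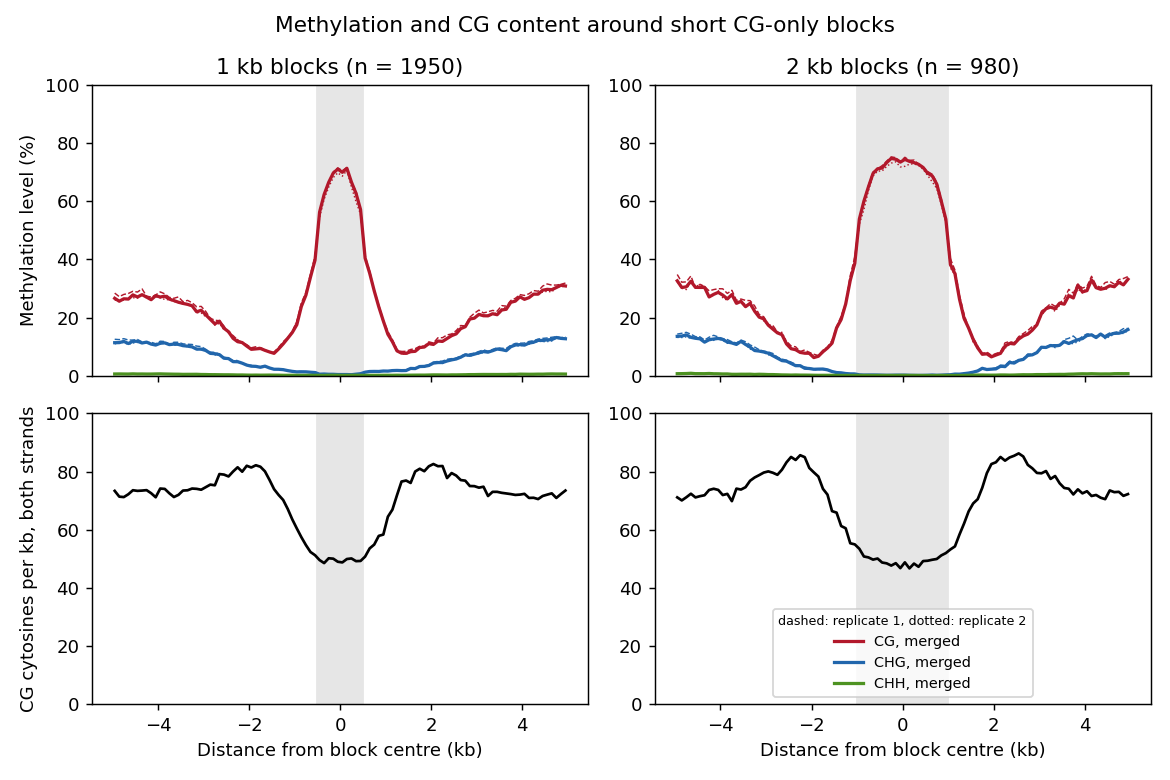
Mean methylation level (%, top) and CG cytosines per kb (bottom) in 100 bp steps from the centre of 1950 1-bin and 980 2-bin short CG-only blocks, with the block shaded; solid lines are the merged report and thin lines the replicates. CG methylation peaks at the centre, where CHG and CHH stay near 0 and CG content is lowest.

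Most blocks were bordered by bins with little or partial CG methylation. Of the 5860 neighbouring bins, 60.9% had partial CG methylation (CG from 5% to below 50%, CHG below 10%), 33.2% were unmethylated and 2.95% were methylated in both contexts. Of all 111934 scored bins, 12336 were partial, 39.8% were unmethylated and 37.7% were methylated in both contexts. Partial bins were more common beside the blocks than over all bins, and methylated bins rarer. The rule kept CG-only bins out of the neighbours but not out of all bins. A methylated patch cut by a bin edge can also give a partial neighbour. In 1-bin blocks the CG level was still 39.8% and 40.5% at 550 bp. How much of the contrast came from the choice of blocks was not tested. Both neighbours were unmethylated in 280 blocks (9.56%, or 9.40% ± 0.447 in the replicates), 1 was unmethylated and the other partial in 1239, and both were partial in 1088. With a CG limit of 70%, both neighbours were unmethylated in 2.15% of the blocks. A methylated bin touched 165 blocks (5.63%). In these, the CHG level was 3.77% (4.59% ± 0.422 in the replicates) and the CHH level 0.316% (0.329% ± 0.0116), against CHH levels of 0.109% to 0.129% in the blocks between unmethylated or partial bins. In the 158 blocks that touched a bin of none of these classes, and no methylated bin, the CHH level was 0.192% (0.197% ± 0.0201). Of the 140 blocks with a CHG level of 5% or more, 139 had 1 bin and 52.9% touched a methylated bin, against 1.82% of the blocks with a CHG level below 1%. Within 5 bins, a methylated bin was found for 60.6% of the bins in short blocks and for 58.1% of unmethylated bins. By this count, short blocks were about as near to methylated DNA as unmethylated bins were. The value was 47.1% in longer CG-only runs. There, more of the bins nearby belong to the run itself and cannot be methylated, which can lower the value, so it was not compared further.

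Single blocks of 1 bin show this structure. For each main kind of surroundings, the block with a CG level nearest to the median of its kind was taken among those with a CHG level below 1% that were CG-only in each replicate, a choice made after the values were seen. The block AnagrOXF.S2:6425001-6426000, between unmethylated bins, had a CG level of 62.4% (57.4% in replicate 1 and 65.1% in replicate 2) and no methylated read at its 69 covered CHG cytosines. Of its 39 covered CG pairs, 20 were at 80% or more and 11 below 20%. The block AnagrOXF.S4:12141001-12142000 lay between an unmethylated and a partial bin, had a CG level of 64.5% (66.2% and 64.7%), and had 14 of 24 pairs at 80% or more and 6 without a methylated read. The block AnagrOXF.S2:10116001-10117000, between partial bins, had a CG level of 68.0% (69.6% and 74.6%) and 16 of 28 pairs at 80% or more. Each of the 3 bins held high and low pairs. In the last of them, 3 pairs were below 20% and 9 lay from 20% to below 80%.

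**Figure D5:**
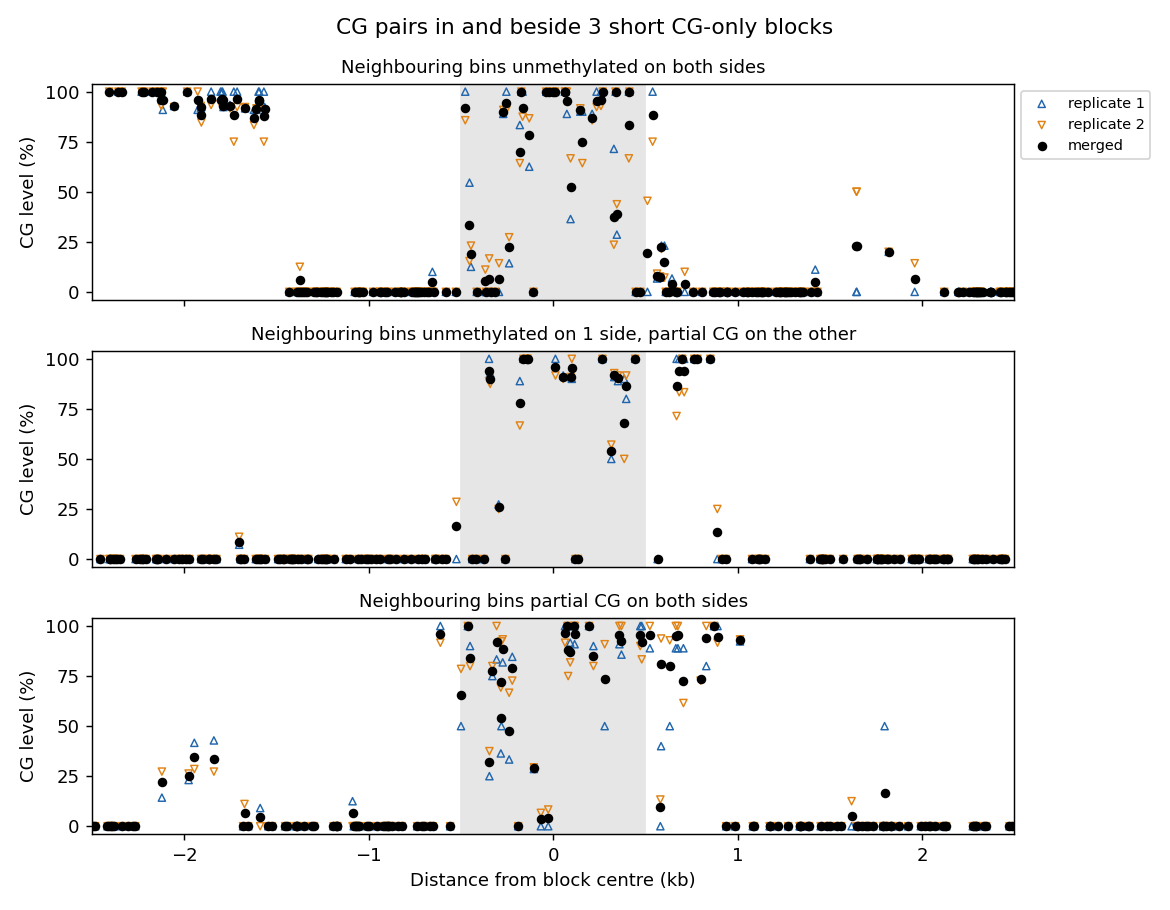
CG level (%) of each covered CG pair by distance from the centre of 3 blocks of 1 kb (shaded), 1 for each main kind of neighbouring bins. Filled circles are the merged report and triangles the replicates; within the shaded bins 20 of 39, 14 of 24 and 16 of 28 pairs are at 80% or more.

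Not every block was CG-only in each replicate alone, at a limit of 5 reads per cytosine. Of the 2919 blocks scored in both, 2253 (77.2%) were CG-only in both, 2553 in replicate 1, 2501 in replicate 2 and 118 in neither. The share in both was 32.6% where the lowest bin of the block had a merged CG level of 50 to 55%, and 92.8% at 60 to 70%. The CG levels of a block in the replicates differed by a median of 5.62 points, and their correlation over the blocks was 0.603. Just inside the CG limit were the bins AnagrOXF.S1:7241001-7242000 and AnagrOXF.S3:19629001-19630000, both at 50.01%, and just outside it were 2 bins at 49.98% (AnagrOXF.S5:1333001-1334000 and AnagrOXF.S3:7203001-7204000). At the CHG limit, the bins inside had 9.98% and 9.97% and those outside 10.03% and 10.04%. Within 2 points of the CG limit lay 270 bins of short blocks.

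The blocks named for the most covered CG sites were not typical of the rest. Those of 1 bin, AnagrOXF.S2:19926001-19927000, AnagrOXF.S1:17888001-17889000 and AnagrOXF.S4:13461001-13462000, had CHG levels of 8.56%, 3.92% and 7.06% and CG levels of 63.9%, 75.1% and 95.8%. The first touched a methylated bin and its methylated stretch of 4250 bp began outside it. The 2-bin blocks had lower CHG levels. AnagrOXF.S4:17326001-17328000, between unmethylated bins, had a CG level of 68.0% over 108 cytosines (69.3% ± 1.34 in the replicates), no methylated read at 140 CHG cytosines and a stretch of 550 bp. AnagrOXF.S1:5650001-5652000 had 76.2% CG and 0.674% CHG methylation, and AnagrOXF.S1:19826001-19828000 had 75.9% and 1.71%. The last of these touched a methylated bin.

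Short blocks occurred on each chromosome, and less often per scored bin on chromosome 6. All CG-only bins were also fewer there, at 3.10% of scored bins against 6.79% on chromosomes 1 to 5. There were 25.7 to 28.8 blocks per 1000 scored bins on chromosomes 1 to 5 (27.6 over all of them) and 10.1 on chromosome 6. With the rule applied in each replicate, the values were 28.0 ± 0.163 and 10.05 ± 0.0387 (SD, n = 2), a difference far larger than the spread. Bins methylated in both contexts cannot be CG-only, and made up 82.4% of scored bins on chromosome 6 and 33.6% on chromosomes 1 to 5. The number of blocks per bin outside methylated bins was not compared. In whole blocks of 1 Mb, chromosomes 1 to 5 had a median of 25 short blocks (3 to 44) and chromosome 6 a median of 5 (1 to 24), so the ranges overlap. On chromosome 6, 2 of 93 blocks had unmethylated bins on both sides, against 278 of 2837 on the other chromosomes. Unmethylated bins made up 7.17% of all scored bins there and 42.7% on chromosomes 1 to 5. On chromosome 6, 90.5% of the bins in its blocks, as well as 84.0% of its unmethylated bins, had a methylated bin within 5 bins. The CG level of the blocks was 70.4% there (70.3% ± 0.0271 in the replicates) and 66.9% on the other chromosomes (66.1% ± 1.24). The median distance from a block to the next short block was 10 bins, and 961 blocks (32.8%) had another within 5 bins. Whether this share exceeds what the density of blocks alone gives was not tested.

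Short blocks were also compared with lists of genes and transposable elements (TEs). The lists were the first parts of a gene cluster and a TE cluster formed by the study from its chromatin data, so the counts do not stand for all genes or TEs. Of 2000 listed genes, 9 touched a short block, and of 1996 listed TEs, 2 did. The listed genes touched 0.256% of the bins in short blocks and 3.93% of all scored bins, and the listed TEs 0.0512% and 1.45%. In the paper, the clusters differ in their DNA methylation, and shares over all genes or TEs were not computed. These values therefore do not show whether short blocks avoid genes or TEs. The largest overlap was with the gene AnagrOXF.S1G494000 (AnagrOXF.S1:22967866-22974888, plus strand), whose last 1888 bp lay in a 2-bin block with a CG level of 61.2%. CG methylation over the whole gene was 10.7% (replicates 9.85% ± 1.92) and a CHG level of 0.221%. AnagrOXF.S1G572700 (AnagrOXF.S1:26638992-26642001, plus strand) contained a whole 1-bin block at 78.0% CG, over 16 cytosines, whereas the gene was at 20.7% (31.8% in replicate 1 and 14.1% in replicate 2). This block had a CHG level of 8.42%, and of 10.1% in replicate 2, above the limit of the rule. AnagrOXF.S2G355100 (AnagrOXF.S2:16061350-16068444, plus strand) contained a block at 55.1% CG beside a methylated bin. That block was at 46.3% in replicate 1, below the CG limit of the rule, and at 52.5% in replicate 2, with a merged CHG level of 8.58%. The TEs TE_homo_64323 and TE_homo_82324 shared 412 and 295 bp with a block but had CG levels of 0.281% and 0.769% themselves, so that the methylated pairs of these blocks lay outside the TE. Exons and introns were not analysed here, and no role is given for these genes because none of the files used pairs them with a name.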

How the data were processed

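EM-seq reads of 2 biological replicates were trimmed with Trim Galore and mapped by the authors to the Oxford assembly with Bismark and Bowtie2, with SAMtools 1.9 and bedtools 2.27.1 used to merge and convert the reads. The deposited values are counts of methylated and unmethylated reads per cytosine, after duplicate removal and without normalization, for each replicate and for the merged reads. Levels were computed from cytosines with at least 10 reads (5 in a replicate alone), as means over cytosines by bin of 1 kb. CG pairs sum both strands, with the same minimum. Incomplete conversion adds to low levels, and its rate was not analysed here. Merged values are 1 pooled measurement. Replicate values are means ± SD, n = 2.

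No test was run, since there is 1 group of 2 samples and blocks chosen by their own CG and CHG levels. Differences were set against the spread of the replicates. The members and lists were chosen with earlier results of these data known. The blocks named were the 3 of 1 bin and the 3 of 2 bins with the most covered CG sites among those CG-only in each replicate, the 3 with the highest CHH level over at least 100 CHH cytosines, and up to 3 with the largest overlap with a listed gene or TE. Sequences were the longest stretches in the first of these in which the contexts give every base; 2 of these 4 stretches held no CG pair at 50% or more and are not printed. Only the first parts of the gene and TE lists were used, and no overlap was tested.

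Alternatives were read minimums of 5 and 20, at most 27 reads, the sum of the replicates, pooled reads per bin, each replicate alone, bins shifted by 500 bp, a CHG limit of 5%, a CG limit of 70%, and 10 CG and 10 CHG cytosines per bin. A CHG limit of 1% and the level by following base were added after seeing the data. The steps were checked on simulated reads with known blocks, with the same CG level in all blocks and only unmethylated or methylated bins around them. Blocks with mixed pairs and partial neighbours were not simulated. Python 3.11.15, NumPy 2.4.6, PyArrow 21.0.0 and Matplotlib 3.10.9 were used. The reference sequence was not used here.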

Additional observations from a re-analysis of the deposited data

How the results depend on the processing

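The number of short blocks was 2803 to 2995 under the alternatives other than the CG limit of 70% (1907), a minimum of 20 reads, which left 8 blocks, and the added CHG limit of 1% (2787). With 20 reads none of the 8 blocks had unmethylated bins on both sides (0%), the CHH level was 0.254%, there were 54.1 CG cytosines per kb and the methylated stretch had a median of 348 bp; values over so few blocks are limited by depth. With the CG limit of 70%, 2.15% of blocks had unmethylated bins on both sides, CG cytosines per kb were 49.6 and the stretch 464 bp. With the CHG limit of 1%, these values were 8.86%, 49.1 and 318 bp, and the CHH level was 0.0798%. The CHG limit of 5% gave a stretch of 318 bp, bins shifted by 500 bp 8.89% of blocks between unmethylated bins, 10 sites per context 49.6 CG cytosines per kb, and a minimum of 5 reads 49.2. With each replicate left out in turn the number was 2973 to 2995, the share between unmethylated bins 10.1% to 10.5%, the CHH level 0.115% to 0.143%, CG cytosines per kb 49.4 to 49.5 and the stretch 315 to 318 bp. These 5 results otherwise moved by less than 1 SD of the replicates, or 1.5 times for the number. The CG level, the share of CG cytosines at 80% or more and the CHG level moved by more than 1 SD under 2, 3 and 7 of the 12 alternatives. The difference by T after CG stayed between 23.4 points (20 reads) and 29.7 points (CHG limit of 1%). No paired analysis was possible because there is a single group. At a median depth of 4 reads per replicate, single cytosines are measured coarsely, and an SD from 2 replicates is itself imprecise.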

Other observations

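CG pairs in opposite states in the replicates were counted among pairs with at least 10 reads in each, as pairs at 80% or more in one replicate and below 20% in the other. In short CG-only blocks there were 245 such pairs of 39408 (0.622%), 139 of them high in replicate 1 and 106 high in replicate 2, and they lay in 229 bins. The share was 0.670% in CG-only runs of 3 or more bins (211 of 31485 pairs), 0.319% in bins with partial CG methylation (480 of 150657), 0.0180% in methylated bins (76 of 423368) and 0.00684% in unmethylated bins (55 of 803831). With 2 samples, whether these pairs differ between plants or between cells of a plant was not tested.

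Of the 6972 CG pairs in short blocks at 20% to below 80% in the merged report that were covered in both replicates, 2374 (34.1%) were at such a level in both replicates, against 54.5% of 12831 in methylated bins.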
